A study of Mus musculus with 72 samples.

Results

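The livers described here came from female DBA/2J mice on a Western diet, an obesity-inducing diet, with a low isoleucine content, set against the same diet with its control isoleucine content. Members were chosen by label: the 6 libraries of female DBA/2J liver on the low isoleucine diet and the 6 on the control diet, 12 of the 72 libraries of the series. A further group of 6 female DBA/2J livers on a high isoleucine Western diet is given beside them. All animals ate their diet for 12 weeks and were fasted for 16 h overnight before liver RNA was taken, so both groups share the Western diet and the fast, and no group on another diet was measured. The labels disagree on when feeding began (at 6 weeks of age in the design text, at 18 weeks in the treatment text, with 18 weeks also in the age field) and on whether libraries were polyA-selected or of total RNA. They give no time of day, no batch and no statement that each library came from its own animal. The p-values therefore set group differences against the spread between libraries. Some of that spread may be technical, and it may differ from the spread between animals. The rest of the series holds male DBA/2J mice and C57BL/6J mice of both sexes on the same diets, which serve below only to show where the effect in DBA/2J females differed.

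Isoleucine is one of the essential amino acids with a branched side chain, which the liver passes on largely to other tissues for breakdown, and supply is read by the amino acid sensing branches of the cell, the kinases GCN2 and mTORC1. Type I and type II interferons switch on overlapping sets of antiviral and antigen-presentation genes through STAT and IRF factors, which bind the interferon-stimulated response element in promoters. The liver clock is a loop in which the activators BMAL1 (Arntl), CLOCK and NPAS2 drive their own repressors, the PER, CRY and REV-ERB (Nr1d1, Nr1d2) proteins, and output factors such as DBP. Cytochromes P450 of the Cyp3a family oxidise steroids and foreign compounds, and several mouse members are known as female-biased in the liver.

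The 12 libraries held between 19243535 and 48477113 counts, with a median of 23114964 in the low isoleucine group and 21584171 in the control group. The deepest library, low isoleucine replicate 6, stood apart: it gave 10 of the 23 single-library outlying values listed after the report, and 1525 genes were called without it. Of 12 hepatocyte markers, 11 had enough counts to be tested and 0 were called by edgeR (3 higher at an unadjusted p below 0.05, 1 higher in DESeq2, 0 in limma voom). Their summed level was 138157 to 168607 CPM in low isoleucine libraries and 122989 to 136515 CPM in control libraries. These ranges did not overlap, with the low isoleucine libraries higher. Xist, the RNA of the inactive X chromosome, was present at 338 to 1039 CPM over the 12 libraries, and the Y-linked gene Ddx3y was at 0 in all 12. Mitochondrially encoded genes took 8.31 to 11.2% of counts in low isoleucine libraries and 6.07 to 10.04% in control libraries.

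Low isoleucine livers differed from control livers in a wide set of genes, led by lower interferon-induced genes and lower female-biased Cyp3a genes, and by higher Cry1, Lpl, Cdkn1a and nucleolar genes. Among 14954 genes tested, 1760 (11.8%) passed an adjusted p of 0.05 in edgeR's quasi-likelihood test with Benjamini-Hochberg adjustment, 764 higher (5.11%) and 996 lower (6.66%). Counts of list members given below are to be read against these shares of 5.11% and 6.66%. At least a 2-fold change was seen in 81 of those that rose and 192 of those that fell, and the median log2 fold change over all genes tested was -0.002. Library titles carry a number that is shared by 2 libraries of a diet. With this number as a random replicate block, 837 genes passed, of which 833 were among the 1760. Without the scaling of libraries by trimmed means (TMM), all fold changes moved down by about 0.10 on the log2 scale, 2027 genes passed and 16.9% of them were higher, against 43.4% with it. Of 118 genes called and named by a fixed rule, 45 kept their call in all 30 alternatives tried at this threshold (other tests, scalings, filters, replicate blocks and left-out libraries). Where the call of a gene described below as higher or lower ended in some of the alternatives that gave it a value, the number is given beside it.

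**Figure D1:**
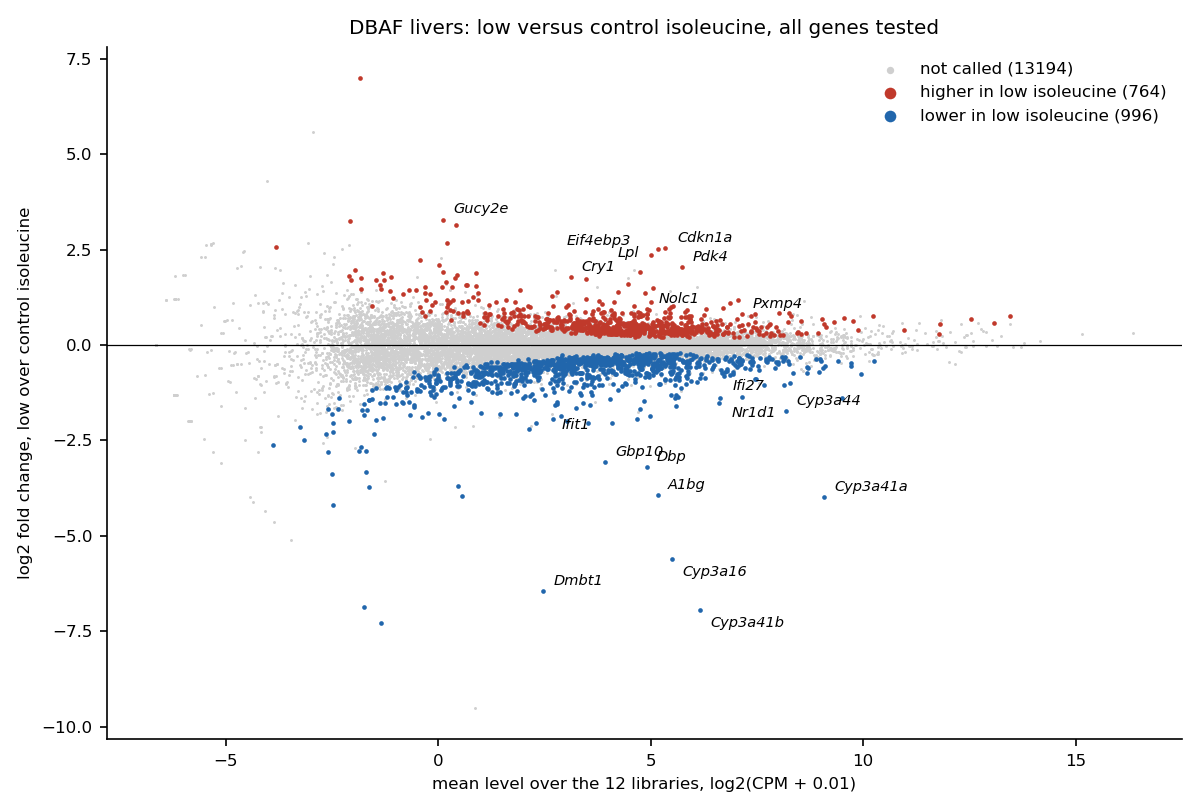
Each point is 1 of 14954 genes, with its mean level over the 12 libraries on the x axis (log2 of CPM plus a pseudocount of 0.01) and its log2 fold change, low over control isoleucine, on the y axis. Red points are the 764 genes called higher and blue points the 996 called lower, and the largest named falls belong to Cyp3a genes and Dmbt1.

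Interferon-induced genes were lower almost without exception. Of 31 measured members of an interferon response list, 29 fell and 0 rose, against 6.66% of all genes falling, and the median log2 fold change of the list was -1.26. Their summed level was 295 to 427 CPM in low isoleucine libraries and 596 to 774 CPM in control libraries, and the groups did not overlap. By edgeR 0 members were higher at an unadjusted p below 0.05, and 0 were higher in DESeq2 and limma voom. Between 25 and 30 members passed as lower in every alternative.

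Ifit1, an antiviral protein that binds viral RNA ends (chr19:34640871-34650009, plus strand, GRCm38), had 3.55, 6.93 and 9.18 CPM as lowest, median and highest of 6 low isoleucine libraries, against 20.6, 27 and 39.7 CPM in 6 control libraries. Its log2 fold change was -2.04 ± 0.28 (SE; adjusted p = 1.0e-06 in edgeR's quasi-likelihood test). Every low isoleucine library lay below every control library. Ifih1, which encodes the cytosolic RNA sensor MDA5 (chr2:62595798-62646255, minus strand), had 8.54, 9.07 and 11.2 CPM in low isoleucine livers, against 15.7, 20.0 and 25.0 CPM in control livers (-1.05 ± 0.14 on the log2 scale, adjusted p = 2.9e-07). The nucleic acid sensor Zbp1 had 3.03, 4.56 and 5.39 CPM in low isoleucine livers, against 15.2, 19.4 and 20.7 CPM in control livers, and fell by 2.04 ± 0.36 on the log2 scale. These groups also had no overlap.

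Oas1a, which makes the second messenger of RNase L (chr5:120896256-120907521, minus strand), had 1.12, 1.81 and 3.13 CPM in low isoleucine livers and 6.33, 7.32 and 9.96 CPM in control livers (log2 fold change -2.06 ± 0.27). Usp18, the protease that removes ISG15 from proteins, had 3.31, 5.03 and 10.1 CPM in low isoleucine livers and 13.4, 17.9 and 21.4 CPM in control livers (log2 fold change -1.59 ± 0.21). Ifi27 was among the 5 genes of lowest p in the whole comparison, with 37.3, 52.4 and 75.4 CPM in low isoleucine livers and 121, 149 and 154 CPM in control livers (log2 fold change -1.39 ± 0.17, adjusted p = 1.2e-07). The fall took in upstream factors and effectors alike: the transcription factors Irf7 (-1.36) and Irf9 (-0.77), the ubiquitin-like modifier Isg15 (-1.98), the RNA sensors Ddx58 (-0.80) and Dhx58 (-1.26), and the antiviral genes Mx1 (-1.04; call ended in 1 of 30 alternatives), Rsad2 (-1.01) and Oas2 (-0.96), all log2 fold changes past the threshold. The 2 members not called were Bst2 (-0.51, adjusted p = 0.088) and Stat2 (-0.17, adjusted p = 0.49). Oas1a and Oas1g, and Ifit3 and Ifit3b, are near-identical copies between which reads can be split, so their separate levels are uncertain.

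Interferon-induced GTPases, which act on the membranes of vacuoles that hold pathogens, fell in 10 of 18 members and rose in 0 (by edgeR 0 higher at an unadjusted p below 0.05, and 0 in DESeq2 and limma voom), with a median log2 fold change of -1.04. Gvin1, which counts among the 18, was at 0 in all 12 libraries. Gbp10 had 2.10, 2.99 and 4.38 CPM in low isoleucine livers and 17.8, 18.6 and 47.1 CPM in control livers (-3.06 ± 0.54 on the log2 scale, adjusted p = 7.8e-05). The 2 control libraries of title number 30 had 47.1 and 43.3 CPM and stood above the other 4, and no low isoleucine library came near the control range. Gbp3 had 3.17, 4.43 and 6.14 CPM in low isoleucine livers, against 9.87, 14.7 and 18.5 CPM in control livers (log2 fold change -1.64 ± 0.32). Gbp7 (-1.32 ± 0.27), Irgm1 (-1.06 ± 0.21), Gbp6 (-1.69), Igtp (-1.39; call ended in 2 of 30 alternatives), Ifi47 (-1.24), Irgm2 (-1.12), Gbp11 (-1.03; 14 of 30, including those without any 1 of 8 single libraries) and Iigp1 (-0.74; 2 of 30) also fell. The Gbp genes and the pair Tgtp1 and Tgtp2 are closely related in sequence, and their separate values are uncertain.

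In MHC class I presentation, 4 of 12 members fell (2 with the title-number block) and 0 rose (0 higher at an unadjusted p below 0.05 in edgeR, and 0 in DESeq2 and limma voom), with a median log2 fold change of -0.32. The 4 were the peptide transporter subunits Tap1 and Tap2, the immunoproteasome subunit Psmb9 and the nonclassical class I gene H2-T23. Tap1 had 12.5, 16.6 and 20.8 CPM in low isoleucine livers and 29.7, 33.2 and 35.6 CPM in control livers (log2 fold change -0.98 ± 0.20, adjusted p = 0.00047), with no overlap. Psmb9 had 5.64, 6.14 and 7.28 CPM in low isoleucine livers and 11, 11.9 and 13.2 CPM in control livers (log2 fold change -0.96 ± 0.26; call ended in 2 of 30 alternatives). The classical heavy chains H2-K1 (-0.10) and H2-D1 (-0.15) and their light chain B2m (-0.09) were not called. Calls ended for Tap2 (-0.69 ± 0.18) in 2 of 30 alternatives and for H2-T23 (-0.41 ± 0.12) in 7, including the one without low isoleucine replicate 2, where the highest adjusted p with 1 library left out was 0.059.

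Markers of immune cells were measured beside these genes. Of 13 Kupffer cell markers, the resident macrophages of the liver, 0 were called by edgeR (1 lower at an unadjusted p below 0.05, 0 in DESeq2, 0 in limma voom), their median log2 fold change was -0.30, and all 13 fold changes were below 0. Their summed level was 360 to 501 CPM in low isoleucine libraries and 345 to 611 CPM in control libraries, and these ranges overlapped. Markers of infiltrating macrophages summed to 74.8 to 205 CPM in low isoleucine libraries and 70.8 to 123 CPM in control libraries, with 1 of 15 called, the chemokine Ccl2, whose call ended in 8 of 28 alternatives, including those without low isoleucine replicate 6 and without control replicate 3. Lymphocyte markers summed to 20.6 to 39.2 CPM in low isoleucine libraries and 17.7 to 47.3 CPM in control libraries, with 1 of 18 called. It was Cd3g, which encodes the CD3 gamma subunit of the T cell receptor complex. Its call ended in 16 of 30, including those without any 1 of 7 single libraries. The genes of MHC class II presentation had a median log2 fold change of -0.52 and 0 of 7 called by edgeR (0 at an unadjusted p below 0.05, 0 in DESeq2, 0 in limma voom). The part of immune cell numbers in the interferon result was not tested, and in whole liver RNA fewer cells of a type cannot be told apart from less RNA per cell.

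Promoter sequence was read for the interferon genes as a description. The lists hold genes known to be induced by interferon, so a high share of this element follows from their choice and bears on no effect of the diet. RefSeq promoters of build GRCm38.p6, 250 bases before to 50 after each start, were matched by symbol for 21 of the 31 interferon response genes and 10 of the 18 GTPases. The core of the interferon-stimulated response element was searched as GAAANNGAA on both strands, where matches may overlap each other. It was present in 15 of the 21 (71.4%) and in 9 of the 10 (90.0%), against 9.76% of the promoters of all 27025 genes in the RefSeq table and 9.05% of those of the genes tested here. The stretches around the matches are shown for 4 of the genes described above, on the strand of the gene, with the matches within each stretch in capitals. The Ifih1 window holds another match, outside the stretch shown.
Ifih1, chr2:62646329-62646397, minus strand: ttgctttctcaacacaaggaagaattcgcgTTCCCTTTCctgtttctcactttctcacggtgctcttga
Oas1a, chr5:120907526-120907575, minus strand: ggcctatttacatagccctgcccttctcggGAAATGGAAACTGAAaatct
Ifit1, chr19:34640750-34640843, plus strand: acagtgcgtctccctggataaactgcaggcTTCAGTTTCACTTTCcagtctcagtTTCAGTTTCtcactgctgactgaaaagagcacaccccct
Gbp3, chr3:142559970-142560043, plus strand: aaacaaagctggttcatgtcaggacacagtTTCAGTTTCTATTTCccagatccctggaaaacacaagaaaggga
In Oas1a, Ifit1 and Gbp3 a pair of matches overlapped, so that the capitals run together. Bst2 and Stat2, which were not called, also held matches. A match is a run of letters and shows no binding in these livers.

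**Figure D2:**
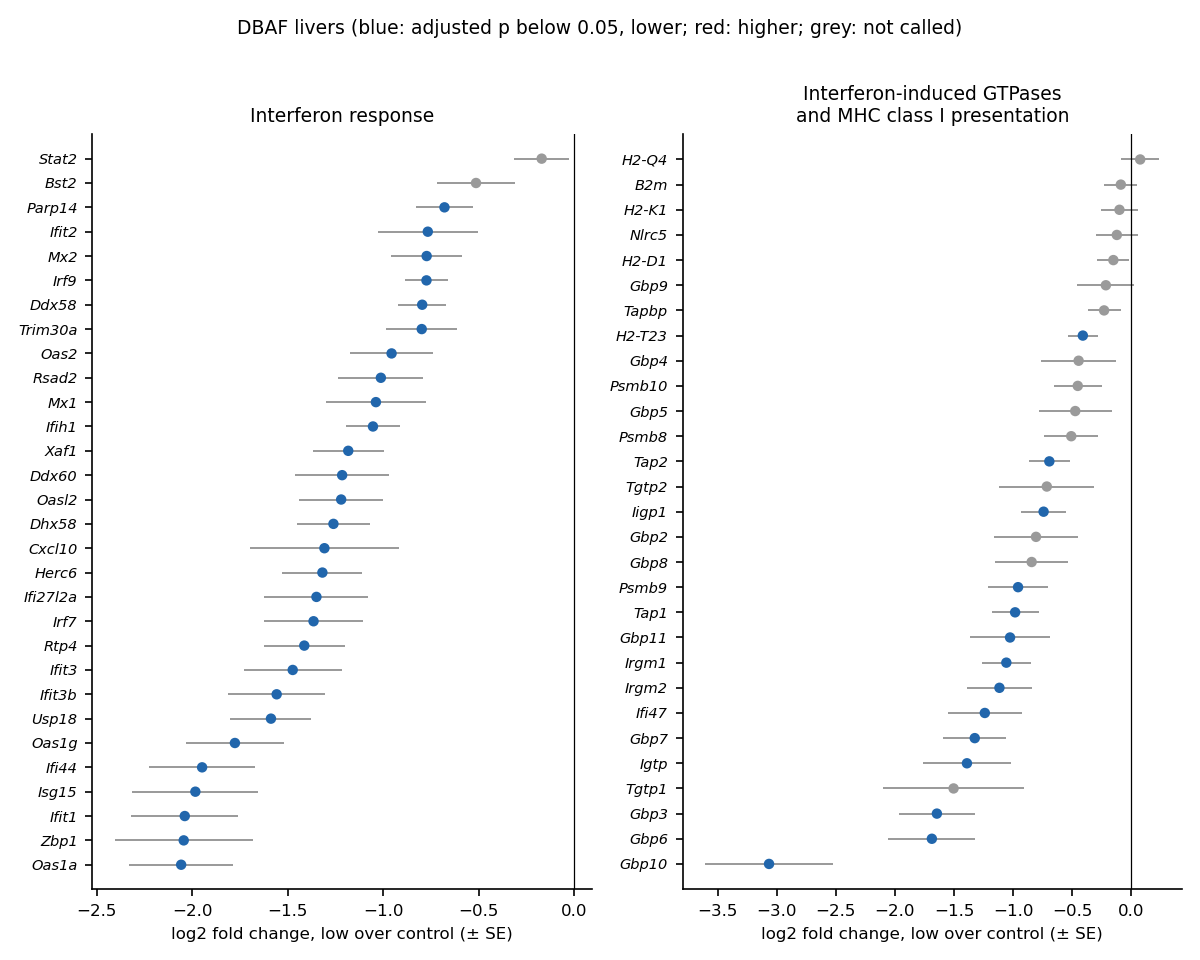
Points are log2 fold changes, low over control isoleucine (x axis), with SE bars, for 30 genes of the interferon response list (left) and of the interferon-induced GTPases and MHC class I presentation lists (right), without Gvin1. Blue points passed the adjusted p of 0.05, and 28 of the 30 genes on the left are blue while the class I genes H2-K1, H2-D1 and B2m on the right lie near 0.

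Clock genes moved in both directions. Of 5 activators 3 rose and 0 fell (by edgeR 0 lower at an unadjusted p below 0.05, and 0 in DESeq2 and limma voom), with a median log2 fold change of 0.48, but without control title number 34 none of the activators was called. Of 11 repressors 2 rose and 4 fell (1 and 3 with the title-number block), with a median of -0.69. Of 8 output factors 1 rose and 2 fell (0 and 1 with the block), with a median of -0.20. Cry1, a repressor of late phase, had the lowest p of all genes. It had 8.51, 14.7 and 16.5 CPM in low isoleucine livers and 2.97, 4.10 and 4.48 CPM in control livers (chr10:85131700-85185064, minus strand; log2 fold change 1.77 ± 0.21, adjusted p = 4.2e-08). Every low isoleucine library lay above every control library.

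Dbp, a transcription factor of the clock output (chr7:45705088-45710203, plus strand), lay at 4.2, 5.51 and 8.03 CPM in low isoleucine livers and at 20.0, 55.9 and 89.1 CPM in control livers. Its log2 fold change was -3.20 ± 0.49 (adjusted p = 6.5e-06) with no overlap, and its spread was wide in the control group and narrow in the low isoleucine group. Nr1d1, the repressor REV-ERB alpha, had 26.3, 46.8 and 97.2 CPM in low isoleucine livers, against 110, 139 and 177 CPM in control livers (log2 fold change -1.52 ± 0.32, adjusted p = 0.0010). Its relative Nr1d2 had 20.8, 36.5 and 43.4 CPM in low isoleucine livers, against 46.5, 58.6 and 62.7 CPM in control livers (-0.69 ± 0.15). Neither overlapped between the groups.

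Arntl, which encodes BMAL1, had 21.8, 26.7 and 33.3 CPM in low isoleucine livers and 4.94, 10.6 and 16.4 CPM in control livers (log2 fold change 1.39 ± 0.35, adjusted p = 0.0048; call ended in 2 of 30 alternatives, among them the one without control title number 34, with a highest adjusted p of 0.072). Npas2 had 4.45, 5.16 and 7.40 CPM in low isoleucine livers and 0.717, 1.95 and 3.57 CPM in control livers (1.44 ± 0.36; call ended in 1 of 30, without control title number 34). The 2 control libraries of that title number had the lowest Arntl of all 12. Clock itself (0.48 ± 0.16) was near the threshold, and its call ended in 17 of 30 alternatives, including those that left out any 1 of 8 single libraries. Repressors that fell further were Bhlhe40 (-0.93 ± 0.27; call ended in 5 of 30) and Cry2 (-0.49, adjusted p = 0.028; call ended in 11 of 30, including those without any 1 of 4 single libraries and the title-number block, at an adjusted p of 0.11). Nfil3, which opposes DBP at its sites, rose (0.80, adjusted p = 0.024), and its call ended in 12 of 30, including those without any 1 of 4 single libraries, without TMM scaling and with the title-number block, where the adjusted p was 0.066. The Per genes were not called: the fold changes were 0.60 for Per1 (adjusted p = 0.33), -0.77 for Per2 (adjusted p = 0.13) and -1.03 for Per3 (adjusted p = 0.094). No time of day is given in the labels, so the sampling times of the 2 groups cannot be compared.

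Promoters were matched for 20 of the 24 clock genes. The E-box was searched as CACGTG, which reads the same on both strands, and the D-box as TTANNTAA, likewise. The E-box was present in 0 of 4 activators, 4 of 9 repressors (44.4%) and 1 of 7 output factors (14.3%), against 8.09% of all promoters and 11.5% of those of the genes tested here. The D-box was present in 0 of 4 activators, 1 of 9 repressors (11.1%) and 1 of 7 output factors (14.3%), against 6.93% of all promoters and 4.78% of those of the genes tested here. The E-box stretches are shown for the 2 genes past the threshold that hold one, Cry1, which rose, and Tef (at 1 of 2 starts that hold one), an output factor close to DBP, which fell.
Cry1, chr10:85185079-85185144, minus strand: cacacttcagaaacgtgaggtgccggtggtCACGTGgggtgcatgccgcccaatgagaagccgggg
Tef, chr15:81802516-81802581, plus strand: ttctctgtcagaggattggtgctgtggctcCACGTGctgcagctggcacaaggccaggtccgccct
Tef had 36.6, 91.6 and 105 CPM in low isoleucine livers and 92.0, 138 and 222 CPM in control livers (log2 fold change -0.80 ± 0.22, adjusted p = 0.012; call ended in 6 of 30 alternatives). Low isoleucine replicate 6 was far below the other 5 of its group, and the call ended without control replicate 6, at an adjusted p of 0.060.

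Cyp3a genes were among the largest falls of the comparison. In a list of the Cyp3a gene family that was drawn up after values had been seen, 6 of 10 tested members fell (4 with the title-number block) and 1 rose. The 6 are Cyp3a57 (-2.77), whose call ended with the title-number block alone among 28 alternatives, at an adjusted p of 0.056, and Cyp3a16 (chr5:145436309-145469723), Cyp3a41b, Cyp3a63-ps, Cyp3a41a and Cyp3a44 (chr5:145773983-145805874), which follow each other in this order on the minus strand of chromosome 5. Cyp3a41a (chr5:145694049-145720136) had 5.44, 20.7 and 234 CPM in low isoleucine livers and 491, 1013 and 1461 CPM in control livers (log2 fold change -3.98 ± 0.70, adjusted p = 7.8e-05). Its highest low isoleucine value, in replicate 6, was still below the lowest control value, and without that library the log2 fold change was -5.09. Cyp3a44 had 55.4, 119 and 260 CPM in low isoleucine livers and 322, 427 and 604 CPM in control livers (-1.74 ± 0.43, adjusted p = 0.0047), again with no overlap.

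Cyp3a16 had 0.21, 0.589 and 6.71 CPM in low isoleucine livers and 29.8, 74.8 and 211 CPM in control livers (log2 fold change -5.62 ± 0.84, and -7.38 without low isoleucine replicate 6). Cyp3a41b (chr5:145558664-145584730) had 0, 0 and 4.95 CPM in low isoleucine livers, with the highest value in replicate 6, against 18.9, 136 and 336 CPM in control livers (log2 fold change -6.95 ± 1.15; -10.54 without replicate 6; call ended in 1 of 30 alternatives, the title-number block, at an adjusted p of 0.088). The pseudogene Cyp3a63-ps fell with them, with 0, 0.113 and 0.465 CPM in low isoleucine livers and 0.818, 2.37 and 6.28 CPM in control livers. Cyp3a41a, Cyp3a41b, Cyp3a16 and Cyp3a44 are close copies, so the division of reads among them is uncertain, and all of them moved the same way. The abundant family members Cyp3a11 (-0.04, adjusted p = 0.94) and Cyp3a25 (-0.11, adjusted p = 0.71) were not called. Cyp3a13, which lies apart from the others (chr5:137892932-137921619), rose by 0.69 ± 0.14, with 37.6, 47.2 and 63.9 CPM in low isoleucine livers and 23.6, 29.4 and 41.1 CPM in control livers, which overlapped.

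A wider list of female-biased liver genes had 5 of 26 members lower (19.2%) and 2 higher (7.69%), against 6.66% and 5.11% of all genes. The median log2 fold change was -0.13, and 3 of the 5 lower members were Cyp3a genes. A1bg, a secreted plasma glycoprotein (chr15:60896859-60923012, minus strand), had 0.998, 3.65 and 11 CPM in low isoleucine livers and 23.1, 62.5 and 114 CPM in control livers (-3.93 ± 0.60, adjusted p = 5.7e-06). No values overlapped, and replicate 6 was again the highest of the low isoleucine group. Other strongly female-biased genes were not called: Cyp2b9 had a log2 fold change of -0.14, Cyp2b13 of -0.04, Cyp2a4 of -0.63, Cux2 of 0.03 and Sult3a1 of -0.29. Higher members were Cyp39a1, described below, and the estrogen sulfotransferase Sult1e1, with 18.6, 31.2 and 48.8 CPM in low isoleucine livers and 2.36, 5.25 and 39.8 CPM in control livers. The call of Sult1e1 (1.59 ± 0.51, adjusted p = 0.032) ended in 15 of 30 alternatives, including those without any 1 of 7 single libraries. Control replicate 2 alone held the value of 39.8 CPM. Among 25 male-biased genes 1 rose and 1 fell (4% each), and the median was -0.28. The growth hormone and IGF axis had 0 of 14 called by edgeR (1 higher and 1 lower at an unadjusted p below 0.05, 0 in DESeq2, 0 in limma voom).

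**Figure D3:**
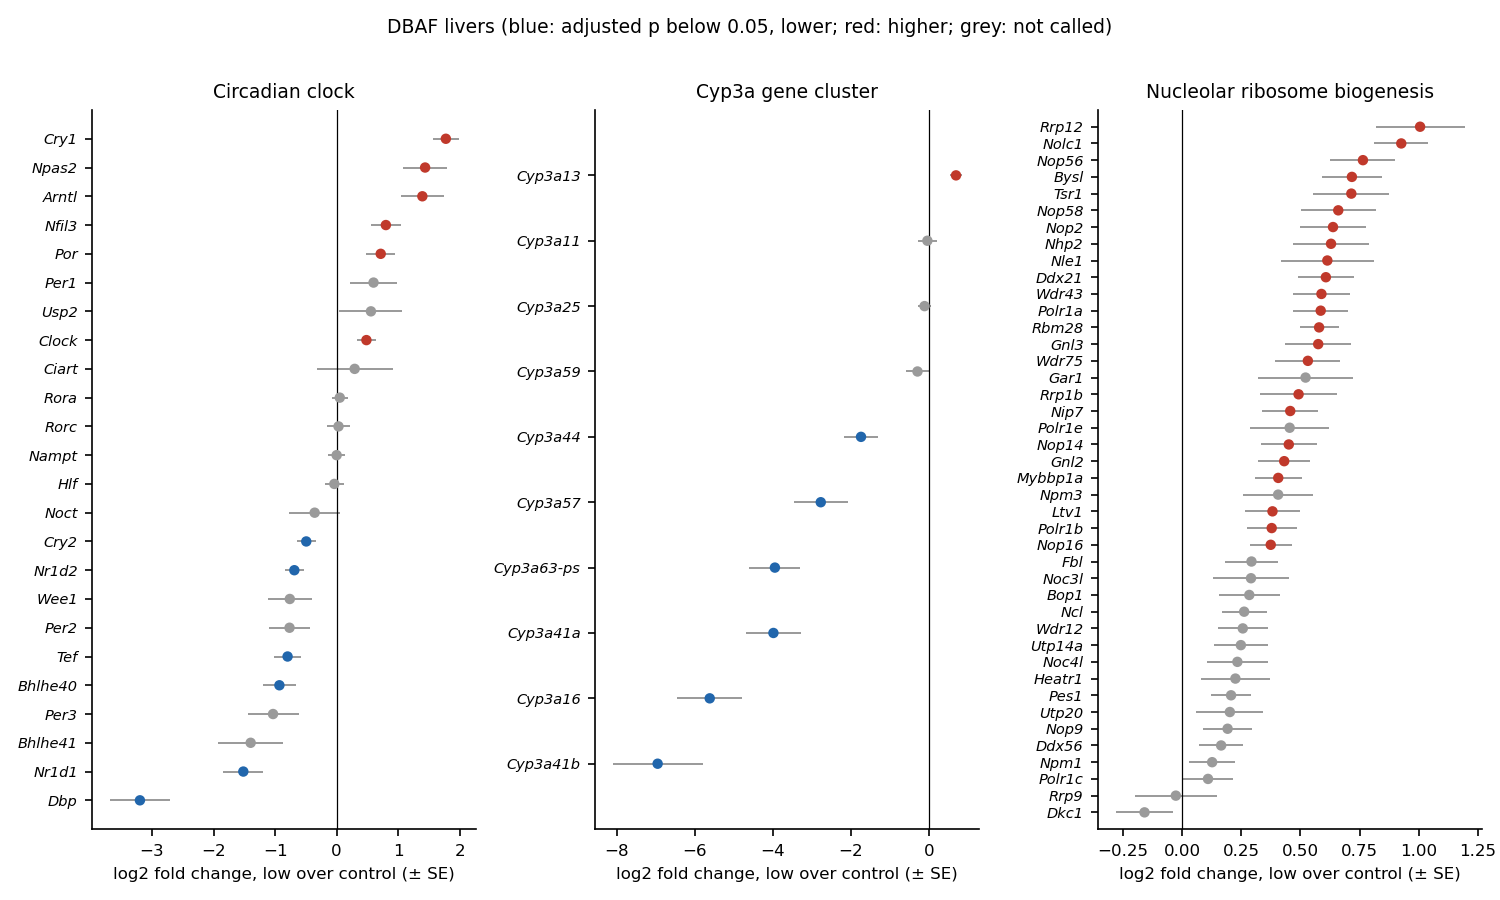
Points are log2 fold changes, low over control isoleucine (x axis, a different range in each panel), with SE bars, for clock genes, for the Cyp3a gene family and for nucleolar genes of ribosome biogenesis. Red passed the adjusted p of 0.05 as higher and blue as lower. Cry1, Npas2 and Arntl are at the top of the clock panel and Dbp at the bottom, 6 of 10 Cyp3a genes are blue, and 23 of 42 nucleolar genes are red with 0 blue.

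Nucleolar genes of ribosome biogenesis were higher. This list was drawn up after Nolc1 had been seen among the genes of lowest p, and its counts are a description. Of 42 members 23 rose and 0 fell (0 lower at an unadjusted p below 0.05 in edgeR, and 0 in DESeq2 and limma voom), with a median log2 fold change of 0.42 and of 0.32 without TMM scaling. Their summed level was 1166 to 1499 CPM in low isoleucine libraries and 938 to 1039 CPM in control libraries, which did not overlap. Nolc1, a scaffold of small nucleolar ribonucleoproteins (chr19:46075863-46085530, plus strand), had 35.3, 39.2 and 47.8 CPM in low isoleucine livers and 20.3, 21.0 and 23.2 CPM in control livers (log2 fold change 0.93 ± 0.11, adjusted p = 1.1e-07). Nop56, a core protein of the particles that methylate ribosomal RNA, had 29.0, 35.4 and 39.1 CPM in low isoleucine livers and 17.8, 20.8 and 22.6 CPM in control livers (0.76 ± 0.14). Bysl, needed for the small subunit, had 12.4, 14.9 and 22 CPM in low isoleucine livers and 8.06, 9.53 and 11.1 CPM in control livers (0.72 ± 0.13, and 0.59 without replicate 6, its outlying value). Rbm28 rose by 0.58 ± 0.08. The largest subunit of RNA polymerase I, Polr1a (0.59), the helicase Ddx21 (0.61) and Rrp12 (1.01) rose as well. The abundant nucleolar proteins Ncl (0.26, adjusted p = 0.060) and Npm1 (0.13, adjusted p = 0.44) were not called. Cytosolic ribosomal proteins had log2 fold changes above 0 in all 30 members, between 0.06 and 0.39, with a median of 0.22 and of 0.12 without TMM scaling. By edgeR 12 were higher and 0 lower at an unadjusted p below 0.05, but 1 of 30 was called, Rps24, whose call ended in 17 of 30 alternatives.

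Genes that report on amino acid supply were mostly not called. The 29 ATF4 targets, the genes of the response to amino acid shortage, had a median log2 fold change of 0.10, which turned to -0.01 without TMM scaling. Of the 29, 0 fell (1 lower at an unadjusted p below 0.05 in edgeR, 1 lower in DESeq2, 0 in limma voom). In edgeR 2 rose (6.90%, against 5.11% of all genes). The 2 were Ppp1r15a (0.51 ± 0.14; call ended in 3 of 30 alternatives) and Atf4 itself (0.40 ± 0.13; call ended in 15 of 30, including those without any 1 of 7 single libraries). Asparagine synthetase, Asns, had 0, 0.331 and 1.10 CPM in low isoleucine livers and 0.0909, 0.164 and 0.506 CPM in control livers, and was not called (0.98 ± 0.91, adjusted p = 0.54). Trib3 (-0.67 ± 0.25, adjusted p = 0.066; called lower in 7 of 30 alternatives, among them the one without low isoleucine replicate 6, at an adjusted p of 0.020) and the stress hormone Gdf15 (-0.61 ± 0.51, adjusted p = 0.49) did not pass either. Fgf21, a liver hormone of protein restriction, had 19.2, 50.4 and 61.2 CPM in low isoleucine livers and 20.1, 28.5 and 54.8 CPM in control livers, with overlap (0.38 ± 0.40, adjusted p = 0.60).

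Eif4ebp3, a 4E-BP that holds back cap-dependent translation, was 1 of 2 called higher among 16 genes of amino acid sensing, of which none was called lower in edgeR (4 lower at an unadjusted p below 0.05, 1 in DESeq2, 0 in limma voom; without TMM scaling 1 was higher and 4 lower). It had 25.2, 59.0 and 109 CPM in low isoleucine livers and 6.2, 10.2 and 17.0 CPM in control livers (log2 fold change 2.51 ± 0.55, adjusted p = 0.0016), without overlap. Nprl3, of the complex that restrains mTORC1, also rose (0.42 ± 0.12; call ended in 5 of 30 alternatives, among them that without low isoleucine replicate 2, at an adjusted p of 0.063). Among 20 aminoacyl-tRNA synthetases 2 rose, Farsa (0.43 ± 0.09) and Tars (0.53 ± 0.14; call ended in 3 of 30). The pathway that breaks down branched-chain amino acids had 0 of 25 members called by edgeR (1 higher and 5 lower at an unadjusted p below 0.05, 0 in DESeq2, 0 in limma voom). Its median was -0.13, and without TMM scaling 7 members were called lower. Bckdhb, a subunit of the committed dehydrogenase, had 96.3, 104 and 121 CPM in low isoleucine livers and 70.9, 93.4 and 108 CPM in control livers (0.19 ± 0.11, adjusted p = 0.28). In a list of 13 genes of the methionine cycle and linked sulfur amino acid steps 3 rose. Among them were Ahcy, which clears S-adenosylhomocysteine (0.54 ± 0.15, call ended in 3 of 30), and Cdo1, which breaks down cysteine (0.40 ± 0.10, 2 of 30). A list of 33 genes of amino acid breakdown and the urea cycle had 1 member higher (3.03%) and 2 lower (6.06%). These shares lay below the 5.11% and 6.66% over all genes. In this list Aass, the first enzyme of lysine breakdown, rose by 0.76 ± 0.19 (call ended in 1 of 30), and Ido2 of tryptophan breakdown fell by 0.90 ± 0.21. The other lower member was Amt, whose call ended in 4 of 30, including the one without low isoleucine replicate 2.

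Cdkn1a, the cell cycle inhibitor p21, was among the largest rises (chr17:29090976-29100727, plus strand). It had 26, 74.5 and 103 CPM in low isoleucine livers and 3.33, 8.39 and 29.9 CPM in control livers (log2 fold change 2.54 ± 0.59, adjusted p = 0.0027). The lowest low isoleucine library lay below the highest control library, so the groups overlapped at that point. Against 5.11% higher and 6.66% lower over all genes, a list of 16 p53 targets and growth arrest genes had 1 member higher (6.25%), Cdkn1a, and 2 lower (12.5%). These were Fas (-0.53 ± 0.16; call ended in 9 of 30 alternatives, including those without low isoleucine replicate 2 or 4) and Gadd45a (-0.99 ± 0.33; 16 of 30, including those without any 1 of 8 single libraries). Cell cycle and replication genes had 0 of 24 called by edgeR (0 at an unadjusted p below 0.05, 0 in DESeq2, 0 in limma voom), with a median of -0.07.

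**Figure D4:**
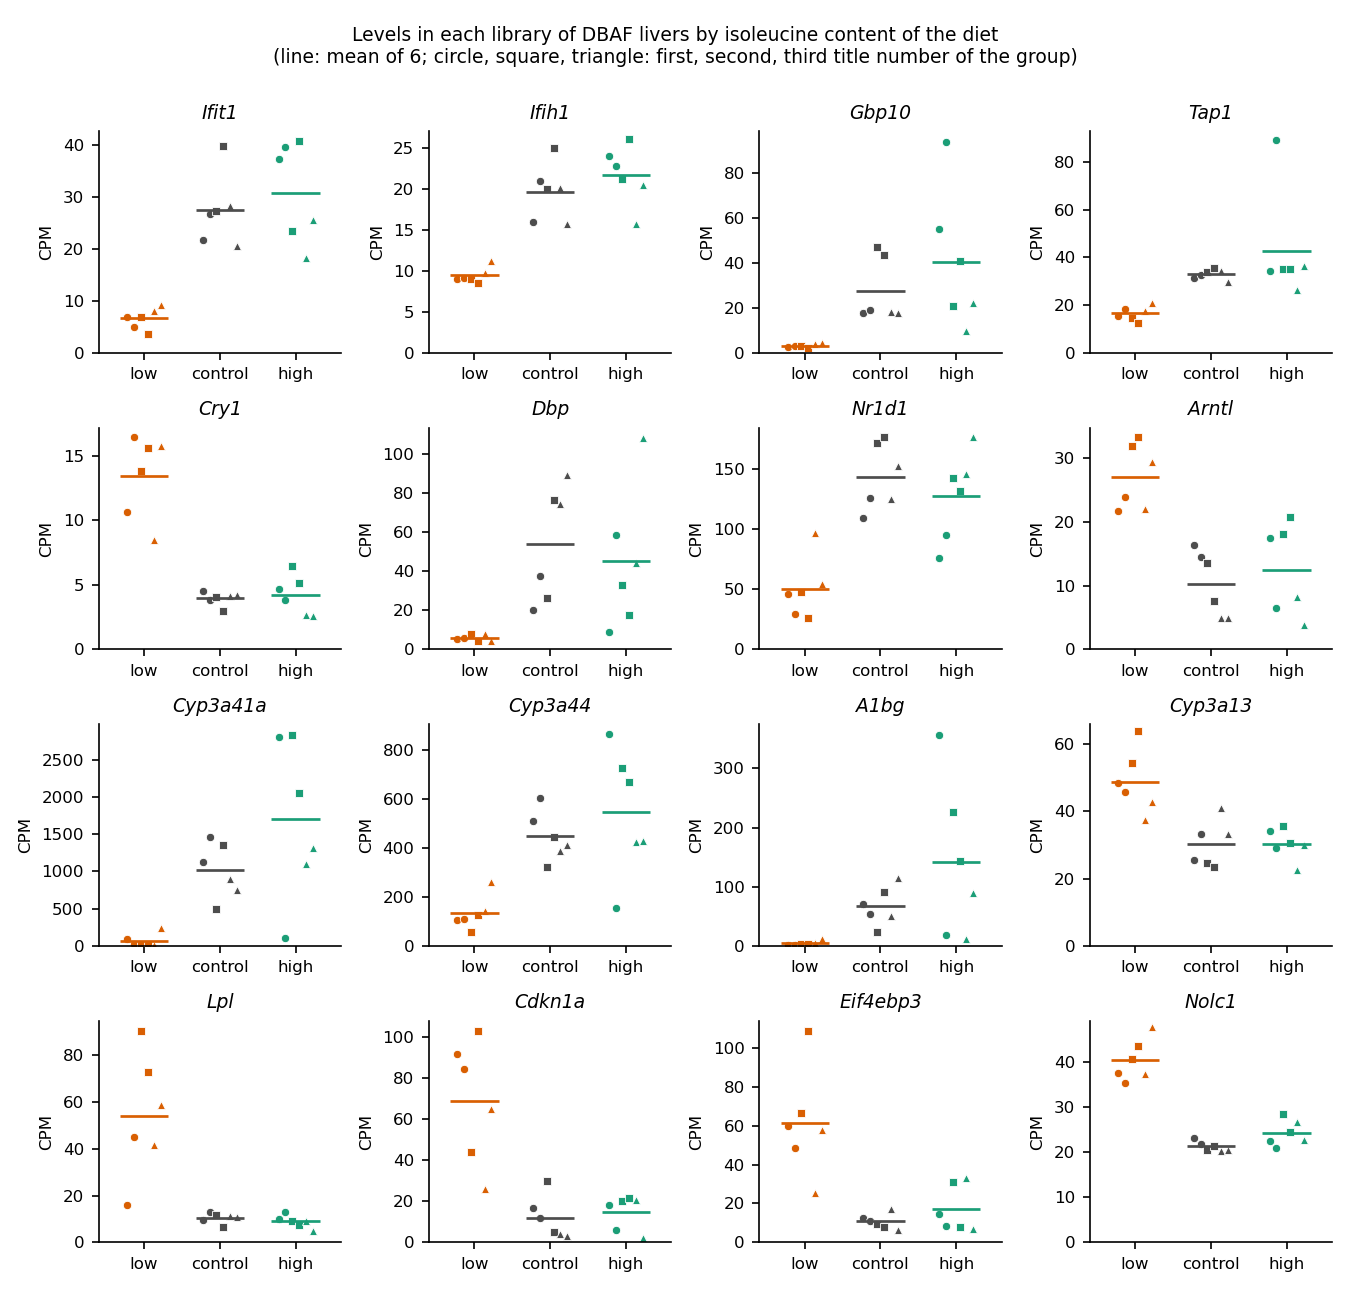
Each marker is 1 library, with its level in CPM on a linear axis from 0, for low, control and high isoleucine diets (left to right), and the line is the mean of 6. Marker shapes show the 3 title numbers of each diet. For Ifit1, Ifih1, Gbp10, Tap1, Dbp, Nr1d1, Cyp3a41a, Cyp3a44 and A1bg all 6 low isoleucine libraries lie below all 6 control libraries, and for Cry1, Arntl, Lpl, Eif4ebp3 and Nolc1 all 6 lie above.

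Genes of lipid uptake and lipolysis rose in part. Lpl, the lipase that frees fatty acids from circulating triglyceride and is normally low in adult liver (chr8:68880491-68907448, plus strand), had 15.8, 52.0 and 90.3 CPM in low isoleucine livers and 6.53, 11 and 13 CPM in control livers. Its log2 fold change was 2.36 ± 0.39 (adjusted p = 3.0e-05), without overlap. Angptl4, a secreted inhibitor of that lipase, had 161, 227 and 294 CPM in low isoleucine livers and 110, 116 and 160 CPM in control livers (0.82 ± 0.17, adjusted p = 0.00073). Pdk4, the kinase that inhibits pyruvate dehydrogenase, had 33.4, 60.0 and 240 CPM in low isoleucine livers and 10.8, 18.3 and 33.6 CPM in control livers (2.05 ± 0.44, adjusted p = 0.0010), with the value of 240 CPM in replicate 3 far above the rest and a slight overlap at the low end. Without the 2 libraries of title number 31, to which replicate 3 belongs, the log2 fold change of Pdk4 was 1.44.

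In a list of 24 lipid droplet and steatosis genes, 4 were higher (16.7%) and 2 lower (8.33%), against 5.11% and 6.66% of all genes. Lpl, described above, is counted among the 4. Their median log2 fold change was 0.15. Plin5, which couples droplets to mitochondria, had 74.8, 96.5 and 119 CPM in low isoleucine livers and 45.7, 56.0 and 66.3 CPM in control livers (0.78 ± 0.18, adjusted p = 0.0023). Pnpla2, the lipase ATGL, rose by 0.63 ± 0.16 (call ended in 2 of 30 alternatives) and Plin4 by 1.10 (14 of 30, including those without any 1 of 5 single libraries and the title-number block), and Plin3 fell by 0.63 ± 0.16 (call ended in 1 of 30). The other lower member was Cideb (-0.32; call ended in 15 of 30, including those without any 1 of 7 single libraries). Cidec, a marker of fat-laden hepatocytes, had 0.907, 1.33 and 4.58 CPM in low isoleucine livers and 0.955, 1.34 and 3.38 CPM in control livers and was not called (0.23 ± 0.54, adjusted p = 0.84). Fatty acid oxidation and PPARA targets had 3 of 34 members higher (8.82%) and 2 lower (5.88%), near the shares of 5.11% and 6.66% over all genes. The median was -0.01, and without TMM scaling 3 members were higher and 6 lower. Vnn1 fell by 0.91 ± 0.21, with 80.4, 120 and 176 CPM in low isoleucine livers and 189, 228 and 267 CPM in control livers. Eci2 of fatty acid oxidation rose by 0.32 ± 0.08 (call ended in 1 of 30) and Eci1 fell (-0.41; 3 of 30, with counts summed per title number and without low isoleucine title number 27 or 31), and Cpt1a was not called (-0.11). Bdh1, the enzyme of the last step of ketone body synthesis, had 230, 287 and 421 CPM in low isoleucine livers and 433, 525 and 551 CPM in control livers, without overlap (-0.73 ± 0.14, adjusted p = 0.00034).

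Lipid synthesis was not called as a block. Fatty acid synthesis had 3 of 26 members higher (1 with the title-number block) and 1 lower, with a median of 0.08 that turned to -0.02 without TMM scaling, where 1 was higher and 4 lower, and Fasn (0.42 ± 0.24, adjusted p = 0.26), Scd1 (0.50 ± 0.49, adjusted p = 0.56) and Srebf1 (-0.09 ± 0.29, adjusted p = 0.88) were not called. Cholesterol synthesis had 0 of 25 called by edgeR (1 higher at an unadjusted p below 0.05, 0 in DESeq2, 0 in limma voom), with a median of 0.33. Among 24 genes of bile acid and sterol handling 5 rose (2 with the title-number block) and 0 fell (3 lower at an unadjusted p below 0.05 in edgeR, 1 lower in DESeq2 and 1 in limma voom), with a median of 0.09 that turned to -0.01 without TMM scaling, where 2 rose and 2 fell. Cyp27a1, the sterol 27-hydroxylase of the alternative bile acid pathway, had 378, 435 and 525 CPM in low isoleucine livers and 241, 284 and 339 CPM in control livers (0.62 ± 0.11, adjusted p = 0.00011). Cyp39a1, which hydroxylates 24-hydroxycholesterol, had 22.7, 42.0 and 58.1 CPM in low isoleucine livers and 11.5, 16.1 and 22.1 CPM in control livers (1.37 ± 0.33, adjusted p = 0.0035). Neither overlapped. Cyp7a1, the rate-limiting enzyme of bile acid synthesis, overlapped widely, with 136, 189 and 299 CPM in low isoleucine livers and 79.2, 153 and 292 CPM in control livers (0.33 ± 0.41, adjusted p = 0.67).

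Gluconeogenesis and fasting genes had 1 of 20 members higher (5%, against 5.11% of all genes). It was G6pc (0.83 ± 0.27), whose call ended in 15 of 30 alternatives, including those without any 1 of 5 single libraries. Pck1 was not called (-0.20 ± 0.19, adjusted p = 0.55). Igfbp1 had 49.7, 73.2 and 267 CPM in low isoleucine livers and 12.0, 32.1 and 64.4 CPM in control livers, and did not pass (1.53 ± 0.61, adjusted p = 0.096). In the unfolded protein response 4 of 23 members rose and 0 fell (0 lower at an unadjusted p below 0.05 in edgeR, and 0 in DESeq2 and limma voom). They were Hspa5 (0.68 ± 0.20), Dnajb9 (0.70 ± 0.20), Manf (0.83 ± 0.26) and Syvn1 (0.69 ± 0.23), whose calls ended in 8, 8, 14 and 17 of 30 alternatives. With the title-number block none of the 4 passed. Without low isoleucine replicate 3 none of the 4 was called, and without replicate 6 Dnajb9 alone was. Mitochondrially encoded genes had log2 fold changes above 0 in all 13 members, with a median of 0.54, and 2 were called, mt-Cytb (0.75 ± 0.21; call ended in 3 of 30) and mt-Nd4 (0.58 ± 0.19; 9 of 30, including those without any 1 of 4 single libraries). Nuclear genes of oxidative phosphorylation had 4 of 34 higher (2 with the title-number block) and a median of 0.14.

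Several of the largest rises belong to no list. Gucy2e, a guanylate cyclase known from photoreceptors, had 0.924, 1.45 and 3.73 CPM in low isoleucine livers and 0.0844, 0.137 and 0.392 CPM in control livers (log2 fold change 3.29 ± 0.57, adjusted p = 0.00011). Tsku, a secreted small leucine-rich protein made by the liver, had 20.5, 43.9 and 72.1 CPM in low isoleucine livers and 5.15, 8.89 and 21.1 CPM in control livers (1.90 ± 0.46, adjusted p = 0.0039), with a small overlap. Grhl1, an epithelial transcription factor, rose by 1.82 ± 0.29 at a low level, 1.34 to 2.71 CPM in low isoleucine livers and 0.273 to 1.22 CPM in control livers. Pxmp4, a peroxisomal membrane protein, had 165, 177 and 223 CPM in low isoleucine livers and 79.5, 107 and 122 CPM in control livers (0.82 ± 0.11, adjusted p = 2.9e-07), without overlap. Other large rises were Sftpa1 (1.92 ± 0.40; call ended in 1 of 30 alternatives), Slc34a2 (1.76 ± 0.49; 4 of 30) and Slc4a9 (1.72 ± 0.42; 2 of 30). For Slc4a9 replicate 3 held 45.4 CPM, and without it the adjusted p was 0.060.

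The calls of 2 of the largest falls depended on which libraries were included. Dmbt1, a secreted mucosal defence protein, had 0, 0.0467 and 0.264 CPM in low isoleucine livers and 0, 0 and 57.1 CPM in control livers. Both control libraries of title number 34 held it (57.1 and 8.61 CPM), and without them the log2 fold change turned to 4.64 (adjusted p = 0.58) from -6.45 ± 1.71 with them. Its call ended in 8 of 28 alternatives, DESeq2 among them, at an adjusted p of 0.19. Sult2a3 had 0, 0.194 and 0.477 CPM in low isoleucine livers and 0.211, 0.595 and 11.8 CPM in control livers, the highest value in a single library (-3.70 ± 1.22, adjusted p = 0.043), and its call ended in 19 of 29 alternatives, including those without any 1 of 8 single libraries.

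High isoleucine livers shared the control libraries of this comparison, so the effects are set side by side only. In high against control isoleucine 1 gene of 14954 was called (0.00669%), with 358 at an unadjusted p below 0.05. It was Suv39h2, a histone methyltransferase, named after its value was seen, with 0.439, 0.566 and 26.4 CPM in high isoleucine livers and 0.422, 0.472 and 0.693 CPM in control livers. A single library thus held the high value. DESeq2 called 3 genes and limma voom 0. For Ifit1 the log2 fold change was 0.17 ± 0.26 with high and -2.04 ± 0.28 with low isoleucine, for Gbp10 0.57 ± 0.48 and -3.06 ± 0.54, for Cry1 0.10 ± 0.21 and 1.77 ± 0.21, for Dbp -0.26 ± 0.44 and -3.20 ± 0.49, for Lpl -0.23 ± 0.39 and 2.36 ± 0.39, and for Cyp3a44 0.29 ± 0.42 and -1.74 ± 0.43. High isoleucine livers held 18.3, 31.3 and 40.7 CPM of Ifit1, 4.95, 9.14 and 13.1 CPM of Lpl and 102, 1687 and 2835 CPM of Cyp3a41a as lowest, median and highest. For Ifit1 and Lpl no high isoleucine library reached the range of the low isoleucine libraries, whereas for Cyp3a41a 1 high isoleucine library did.

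The effect of low isoleucine in DBA/2J females was then tested against that in the other classes, as the difference between effects. Against DBA/2J males 412 genes differed (2.76%), 244 with a higher and 168 with a lower effect in females, and the female and male effects had opposite signs for 307 of them. Of the 412, 130 were among the 1760, and 274 did not pass with the title-number block. Without TMM scaling the median difference over all genes moved to -0.12 and 31.4% of the differences were higher in females, against 59.2% with it. Against C57BL/6J females 0 genes differed in edgeR (0%), with 1258 at an unadjusted p below 0.05, 16 in DESeq2, 0 in limma voom and 113 with library quality weights. Against the mean of the other 3 classes 52 genes differed (0.348%), 39 higher and 13 lower, and none of the 52 passed with the title-number block. Adjusted p-values below are again from edgeR's quasi-likelihood test.

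Lpl rose in DBA/2J females by 2.36 ± 0.39, against 0.67 ± 0.38 in DBA/2J males, 0.08 ± 0.37 in C57BL/6J females and 0.39 ± 0.37 in C57BL/6J males. The difference from their mean was 1.98 ± 0.44 (adjusted p = 0.026, and 0.37 with the title-number block). The differences of Lpl from DBA/2J males alone and from C57BL/6J females alone were not called by edgeR. On the control diet Lpl averaged 10.5 CPM in DBA/2J females and between 19.6 and 39.6 CPM in the other classes, and on low isoleucine 54.1 CPM in DBA/2J females and between 31.1 and 41.9 CPM in the others. Cry1 rose by 1.77 ± 0.21 in DBA/2J females and by 1.39 ± 0.20 in C57BL/6J females, while its log2 fold change was 0.25 ± 0.21 in DBA/2J males (difference between DBA/2J females and males 1.52 ± 0.30, adjusted p = 0.0014, and 0.021 with the block). In C57BL/6J males the log2 fold change of Cry1 lay between those of DBA/2J males and C57BL/6J females. The difference of DBA/2J females from the mean of the other 3 classes was 1.01 for Cry1. Nolc1 likewise had its larger effects in females, with 0.93 ± 0.11 in DBA/2J females, 0.77 ± 0.11 in C57BL/6J females and 0.07 ± 0.11 in DBA/2J males (female minus male difference 0.86 ± 0.16, adjusted p = 0.00084, and 0.014 with the block).

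Further genes differed between DBA/2J females and males. Cyp3a44 went in opposite directions, with -1.74 ± 0.43 in DBA/2J females and 2.93 ± 0.54 in DBA/2J males, where it averaged 7.40 CPM on low isoleucine and 0.941 CPM on control (difference -4.67 ± 0.69, adjusted p = 3.5e-05, and 0.014 with the block). Thrsp, a nuclear protein of lipogenic tissue, had 1.11 ± 0.53 in DBA/2J females, which was not called, and -3.36 ± 0.55 in DBA/2J males (difference 4.47 ± 0.76, adjusted p = 0.00041). Scd1, the stearoyl-CoA desaturase, had 0.50 ± 0.49 in DBA/2J females and -2.02 ± 0.51 in DBA/2J males (difference 2.52 ± 0.70, adjusted p = 0.033, and 0.14 with the block). Hr, a corepressor of thyroid hormone targets, rose in DBA/2J females (1.17 ± 0.31; call ended in 4 of 30 alternatives, among them that without low isoleucine replicate 2, at an adjusted p of 0.060) and had -1.35 ± 0.34 in DBA/2J males (difference 2.51 ± 0.46, adjusted p = 0.00067).

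Of the 31 members of the interferon response list 0 differed from DBA/2J males, 0 from C57BL/6J females and 0 from the mean of the other classes by edgeR, and a difference from C57BL/6J males alone was not tested. The median log2 fold change of the list was -1.26 in DBA/2J females, -1.07 in DBA/2J males, -1.17 in C57BL/6J females and -0.34 in C57BL/6J males. Dbp likewise had -3.20 ± 0.49 in DBA/2J females, -2.27 in DBA/2J males, -3.48 in C57BL/6J females and -2.59 in C57BL/6J males.

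**Figure D5:**
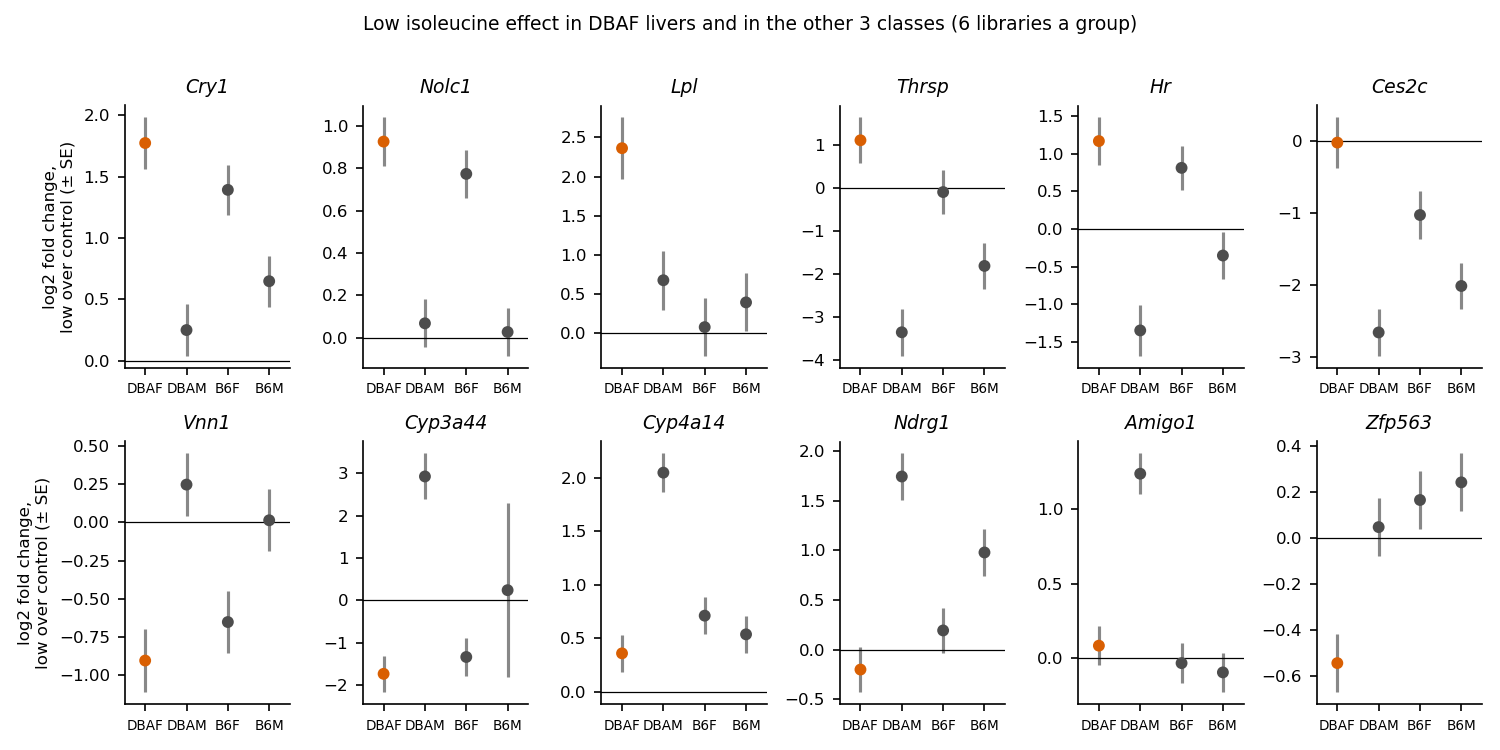
Each panel gives the log2 fold change, low over control isoleucine, with SE bars (y axis, its own range in each panel) in DBA/2J females (DBAF, orange) and in DBA/2J males (DBAM), C57BL/6J females (B6F) and C57BL/6J males (B6M, all grey), 6 libraries a group. Lpl has its largest effect, 2.36, in DBA/2J females, Cry1 and Nolc1 are high in the females of both strains, and Cyp3a44, Cyp4a14, Ndrg1 and Amigo1 are highest in DBA/2J males.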

How the data were processed

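Whole liver RNA was sequenced in 72 libraries, 6 for each of 12 groups of strain, sex and diet. The authors deposited expected counts, estimates of reads per Ensembl gene on GRCm38, per the labels' protocols. R 3.4.3, limma and edgeR appear in the submitters' processing notes; aligner, counter and strand setting are not given in the sources used for this report. Of nonzero deposited counts 9.56% were not whole, and they were rounded. Genes used numbered 50307 (1 unfinished last line was dropped), and 50255 matched the GENCODE annotation of the same build; the other 52 held 0.0168% of counts. In R 4.3.3, edgeR 4.0.16 filtered genes by group (filterByExpr), scaled libraries by TMM and fitted a robust quasi-likelihood model with a mean per group to all 72 libraries, so that groups share 1 estimate of spread, with Benjamini-Hochberg adjustment over 14954 genes. The SE of a log2 fold change came from its F statistic. CPM are TMM-scaled and carry no gene length, so levels are not compared between genes. Scripts were tested on simulated data.

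Depth per library was 19243535 to 48477113 counts, which limits precision for genes under about 1 CPM; the replicate spread in the fit covers counting error. Alternatives were DESeq2 1.42.0, limma 3.58.1 (voom, with and without quality weights), other scalings, filters, library sets and thresholds, each library or title number left out, and the title number as a random replicate block. Whether that number marks a shared cage, day or parent is not in the labels. Deviations from a group mean are pulled towards negative correlation by construction. For libraries with the same number they correlated between -0.142 and 0.153, against -0.337 to -0.101 for other pairs of the same diet. The block model put the correlation within a number at 0.244, so libraries that share a number were not fully independent. No library was a repeat of another.

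Named genes were the 12 largest rises and 12 largest falls among called genes with a mean of at least 1 CPM, a regular symbol and all 6 low isoleucine libraries on the same side of the control mean; the 5 of lowest p; up to 4 called members of lowest p per list; up to 5 each way per difference between classes; and a panel of 27. Other list members are named to complete a list's account and were chosen after their values were seen. Members and lists were chosen with earlier results of these data known. The authors' own comparison tables were not used here, and results of some genes are not reported here.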

Additional observations from a re-analysis of the deposited data

Results flagged for a closer look

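In groups of 6 libraries a single value was singled out where its gap to the nearest of the others exceeded Dixon's 95% critical share of the range of the group. This held for 23 of 296 groups of values (7.77%). The rule's rate of about 5% by chance holds for independent normal values. The genes here share the same libraries and some lie near 0 CPM, so the 2 shares cannot be compared. Low isoleucine replicate 6 gave 10 of the 23. It was the highest of its group for A1bg (10.96 CPM, with the others at 0.998 to 4.02 CPM), Cyp3a16 (6.71 CPM, others 0.21 to 1.14), Cyp3a41b (4.95 CPM, others 0 to 0.517), Oas1a (3.13 CPM, others 1.12 to 1.86), Bysl (21.99 CPM, others 12.4 to 15.2), Pxmp4 (223 CPM, others 165 to 180), Igfbp1 (267 CPM, others 49.7 to 82.9), Trib3 (15.6 CPM, others 7.56 to 9.34) and Cidec (4.58 CPM, others 0.907 to 1.60). For Tef it was the lowest, at 36.6 CPM, with the others at 88.4 to 105 CPM. This was also the deepest library, with 8.31% mitochondrial counts, the lowest share of its group; the part of either in these values was not tested.

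In the other low isoleucine libraries, single high values were Mup3 in replicate 1 (1115 CPM, with the others at 527 to 727 CPM), Themis in replicate 1 (0.310 CPM), Rbm3 in replicate 2 (155 CPM), Pdk4 in replicate 3 (240 CPM), Slc4a9 in replicate 3 (45.4 CPM) and Ppargc1a in replicate 4 (25.1 CPM, others 10.7 to 13.1). In control libraries they were Cyp2a12 (953 CPM), Sult1e1 (39.8 CPM) and Sult2a3 (11.8 CPM) in replicate 2, Cd3g in replicate 3 (1.55 CPM), Dmbt1 in replicate 5 (57.1 CPM) and Cidec in replicate 6 (3.38 CPM). Ndufb8 was low in control replicate 3, at 60.7 CPM, with the others at 71.7 to 78.0 CPM.

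The effect of low isoleucine differed between DBA/2J females and DBA/2J males for 31 named genes, by edgeR's quasi-likelihood test of the difference. In log2 units, female minus male, it was higher in females for Thrsp (4.47), Ces2c (2.64), Scd1 (2.52), Hr (2.51), Tsku (2.37), Bmp7 (2.13), Cry1 (1.52), Gsta3 (1.19), Fmo5 (0.97), Gapdh (0.96), Cyp3a13 (0.93), Nolc1 (0.86), H2-Q10 (0.84), Cyp2a12 (0.77), Sdhb (0.74), Ercc3 (0.73), Agpat2 (0.56), Rbm28 (0.44) and Baat (0.43). It was lower in females for Cyp3a41a (-5.07), Cyp3a44 (-4.67), Dio3os (-2.47), Ndrg1 (-1.94), Cdpf1 (-1.92), Cyp4a14 (-1.69), Zfp820 (-1.54), Vnn1 (-1.15), Amigo1 (-1.15), Bdh1 (-0.84), Plin3 (-0.80) and Zfp563 (-0.59). A difference can come from the effect in either class. In DBA/2J females themselves Amigo1, Bmp7, Ces2c, Dio3os, Ercc3, Gapdh, Ndrg1, Scd1 and Zfp820 were called in none of the 30 alternatives. Of all 412 genes that differed, 274 did not pass with the title-number block.

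Against the mean effect of the other 3 classes, 17 named genes differed, none of which passed with the title-number block. The effect in DBA/2J females was higher for Thrsp (2.87), Lpl (1.98), Ces2c (1.88), Hr (1.46), Grhl1 (1.40), Bmp7 (1.34), Cry1 (1.01), Cyp2a12 (0.67), Nolc1 (0.64), H2-Q10 (0.62) and Rbm28 (0.43). It was lower for Dio3os (-1.75), Cdpf1 (-1.21), Ndrg1 (-1.17), Zfp820 (-1.10), Gstm4 (-0.83) and Zfp563 (-0.70). Of all 52 genes that differed, 31 were also called in low against control isoleucine in DBA/2J females. Bmp7, Ces2c, Dio3os, Ndrg1 and Zfp820 were called there in none of the 30 alternatives.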

How the results depend on the processing

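For low against control isoleucine, 1760 genes were called, and leaving out 1 library at a time gave 1187 (without low isoleucine replicate 2) to 1698 (without low isoleucine replicate 5). With the title number as a random replicate block 837 were called, with counts summed per title number 669, at an adjusted p of 0.01 721, and with library quality weights 2841. Without low isoleucine title numbers 27 and 31 the counts were 1036 and 1097, and without control title numbers 30 and 34 they were 1031 and 1057; fewer libraries and fewer independent units are part of these settings by construction. Between DBA/2J females and males (412), the block gave 139, no filter on low counts 258, an adjusted p of 0.01 132 and quality weights 997. Against the mean of the other 3 classes (52), the block gave 0, no filter 21, an adjusted p of 0.01 1, DESeq2 122 and quality weights 303, and without TMM scaling 36.6% of the calls were higher, against 75.0% with it. Against C57BL/6J females (0), DESeq2 gave 16 and quality weights 113. For high against control isoleucine (1), DESeq2 gave 3, limma voom 0 and the block 0; these alternatives were added after the data had been seen. Dmbt1 reversed, to 4.64, without control title number 34. Of 118 named genes called, 1 lost its call with DESeq2, 50 with the title-number block and 51 without some single library. No paired analysis was possible because title numbers are not shared between diets; the letter N or R of the titles, as a fixed block, gave 1708. The causes were not tested. Genes under about 1 CPM, such as Asns, are limited by depth.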

Other observations

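Marker genes of other liver cells and of other tissues were measured beside the lists above. Of 15 sinusoidal endothelial markers 3 rose, the growth factor genes Bmp2 (log2 fold change 0.51 ± 0.15) and Bmp6 (0.54 ± 0.18) and the receptor Flt1 (0.46 ± 0.14), 0 fell (0 lower at an unadjusted p below 0.05 in edgeR, and 0 in DESeq2 and limma voom), and none passed with the title-number block. Their calls ended in 8, 15 and 11 of 30 alternatives, among them those without low isoleucine replicate 2 and without control replicate 2. The markers summed to 422 to 524 CPM in low isoleucine libraries and 386 to 495 CPM in control libraries. Stellate cell and matrix genes had 0 of 22 called by edgeR (0 at an unadjusted p below 0.05, 0 in DESeq2, 0 in limma voom). Cela1, an elastase gene that served as a pancreas marker, had 6.23, 9.68 and 13.3 CPM in low isoleucine livers and 15.0, 17.4 and 18.5 CPM in control livers, without overlap (-0.81 ± 0.16, adjusted p = 0.00035 in edgeR's quasi-likelihood test). The pancreatic genes Prss1, Ctrb1, Cpa1, Pnlip and Ins2 had too few counts to be tested.

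In a list of 21 NRF2 and glutathione genes 1 was higher and 1 lower (4.76% each), against 5.11% and 6.66% of all genes. The higher was the glutathione transferase Gsta3, whose call ended in 13 of 30 alternatives. The lower, Gstm4, another glutathione transferase, had 9.37, 13.8 and 15.4 CPM in low isoleucine livers and 18.9, 28.2 and 31.1 CPM in control livers, without overlap (-1.07 ± 0.18, adjusted p = 3.8e-05). Ugp2, which makes the UDP-glucose used for glycogen, had 117, 148 and 175 CPM in low isoleucine livers and 143, 241 and 290 CPM in control livers and fell (-0.65 ± 0.13, adjusted p = 0.0004), with some overlap. It was the 1 lower member in a list of 17 genes of glycogen and glucose use, where 1 was higher (5.88% each). Of 12 genes of NAD metabolism and sirtuins 2 fell, Sirt5 (-0.44 ± 0.12; call ended in 3 of 30 alternatives, among them that without low isoleucine replicate 2) and Nmnat3 (-0.47 ± 0.15; 10 of 30, including those without any 1 of 5 single libraries).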
